A study of Mus musculus with 59 samples.

Results

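The genes described here are the proteasome subunits, their assembly chaperones and activators, and the ubiquitin conjugating (E2) enzymes, in the mouse heart after myocardial infarction. They were taken by symbol: every gene with a probe set assigned to it alone whose symbol begins with Psma to Psmg and a digit, or with Ube2. This gave 67 of the 8251 genes on the array, read by 87 probe sets, and 64 of them passed the filter on low intensities. The 67 are 7 alpha ring and 7 constitutive beta ring subunits of the 20S core, 3 immunoproteasome subunits, 6 ATPases and 11 other subunits of the 19S regulatory particle, 3 chaperones of 19S assembly, 4 chaperones of 20S assembly, 3 activators, 21 E2 enzymes or E2 variants, and 2 genes that the symbol rule also takes. Those 2, Psmc3ip and Psme3ip1, are named as interaction partners and are not proteasome subunits. Psmc4, Psmd2 and Ube2w stayed below the floor of 108.2 intensity units on every array and were not tested.

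Ubiquitin is passed from an E1 activating enzyme to an E2 conjugating enzyme and, with an E3 ligase, onto a target protein, and the chains so built mark the protein for the proteasome. In the 26S proteasome the 19S particle binds, unfolds and deubiquitinates the substrate, and the 20S barrel cuts it with 3 catalytic beta subunits. Interferon gamma is known to bring in alternative catalytic subunits, which make the immunoproteasome, and the PA28 activator, which together favour peptides for MHC class I. Heart muscle depends on this system to remove damaged contractile proteins.

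The series holds 59 Affymetrix arrays of left ventricular RNA from mice. Samples were taken at 6 times from the operation: at 1, 4, 24 and 48 h, at 1 week and at 8 weeks. Infarct arrays (18, 3 a time) came from the infarcted ventricle between the left anterior descending artery and the apex. Remote arrays (18, 3 a time) came from the ventricle above the infarction. Sham arrays came from sham operated mice: 18 from the upper region that corresponds to the remote one (3 a time), and 5 from the lower region that corresponds to the infarcted one (1 at each time but 8 weeks). The labels name no strain, age, sex or way of making the infarct, nor whether the 3 arrays of a group are separate mice, so p-values measure the spread between these arrays. The control of every comparison is the sham upper region, which differs from the infarct in position in the ventricle as well as in injury.

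Cell type markers moved with the samples. At 1 week the summed intensity of 12 macrophage markers was 43056 to 46809 in infarct, 21414 to 32387 in remote and 4024 to 5200 in sham upper arrays, and all 11 tested were higher in infarct. The cardiomyocyte markers summed to 21041 to 69161 in infarct, 126494 to 159972 in remote and 182584 to 206858 in sham upper arrays, with 11 of 11 tested lower in infarct. Neutrophil markers summed to 9922 to 20897 in infarct, 5193 to 7956 in remote and 1253 to 1665 in sham upper arrays at 24 h, and to 15186 to 15779 in infarct, 5206 to 6619 in remote and 968 to 1677 in sham upper arrays at 48 h. Fibroblast markers summed to 71537 to 78641 in infarct, 73851 to 85301 in remote and 22969 to 24091 in sham upper arrays at 1 week. Of 12 T and NK cell markers on the list, 4 were tested and none was called at 1 week. An infarct array at 1 week and an infarct array at 8 weeks stood apart, with the lowest cardiomyocyte sums of their groups, 21041 and 115322, and the highest adipocyte sums, 4485 and 8501. Fewer cells of a type and less RNA per cell cannot be told apart in bulk tissue, and the part of cell composition in the results below was not tested.

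In the infarct, the proteasome and E2 genes were called lower more often than higher at 5 of the 6 times, while at 48 h the calls were near balance. A call is an adjusted p under 0.05 from limma with Benjamini-Hochberg adjustment over 6670 genes. At 1 h 1 member was higher and 4 were lower than sham upper, of 64 (all genes: 6.78% called, 3.66% higher and 3.12% lower). At 4 h none was higher and 8 were lower (all genes: 11.9% called, 5.25% and 6.69%). At 24 h 7 were higher and 25 lower (all genes: 42.6% called, 18.6% and 24%). At 48 h 14 were higher and 13 lower (all genes: 50.9% called, 25.1% and 25.8%). At 1 week 10 were higher and 29 lower (all genes: 60.5% called, 34.9% and 25.7%), and at 8 weeks 2 were higher and 9 lower (all genes: 21.1% called, 11.5% and 9.66%). Groups without overlap were common: the 3 infarct arrays lay beyond all 3 sham upper arrays for 25.1%, 37.8%, 46.9%, 58.5%, 69.1% and 34.3% of all genes from 1 h to 8 weeks. The members' median log2 change was -0.23 at 24 h, 0.01 at 48 h and -0.24 at 1 week, against -0.02, -0.04 and 0.11 over all genes tested. Of the 64 members, 37 were called only lower at one time or another, 13 only higher, 4 both and 10 never. In percent these were 57.8%, 20.3%, 6.25% and 15.6% of the members, against 35.1%, 39.2%, 6.97% and 18.7% of all genes. No call at 1 h held when each array was left out in turn, against 3 of 8 at 4 h, 17 of 32 at 24 h, 18 of 27 at 48 h, 25 of 39 at 1 week and 4 of 11 at 8 weeks. Without the infarct array that stood apart the count at 1 week was 31, and likewise the count at 8 weeks was 5.

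**Figure D1:**
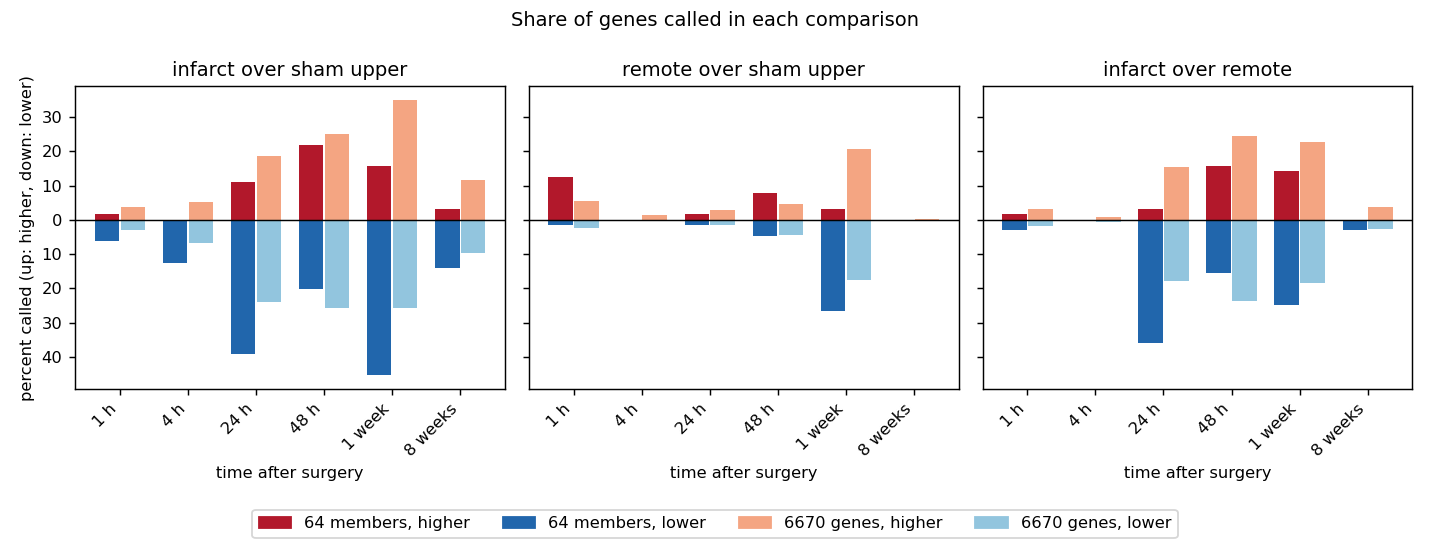
Percent of the 64 members and of all 6670 genes called higher (upward bars) or lower (downward bars) at each time, in the 3 comparisons. In infarct over sham upper at 1 week the downward bar of the members (29 of 64) is longer than that of all genes (25.7%), and the upward bar is shorter.

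**Figure D2:**
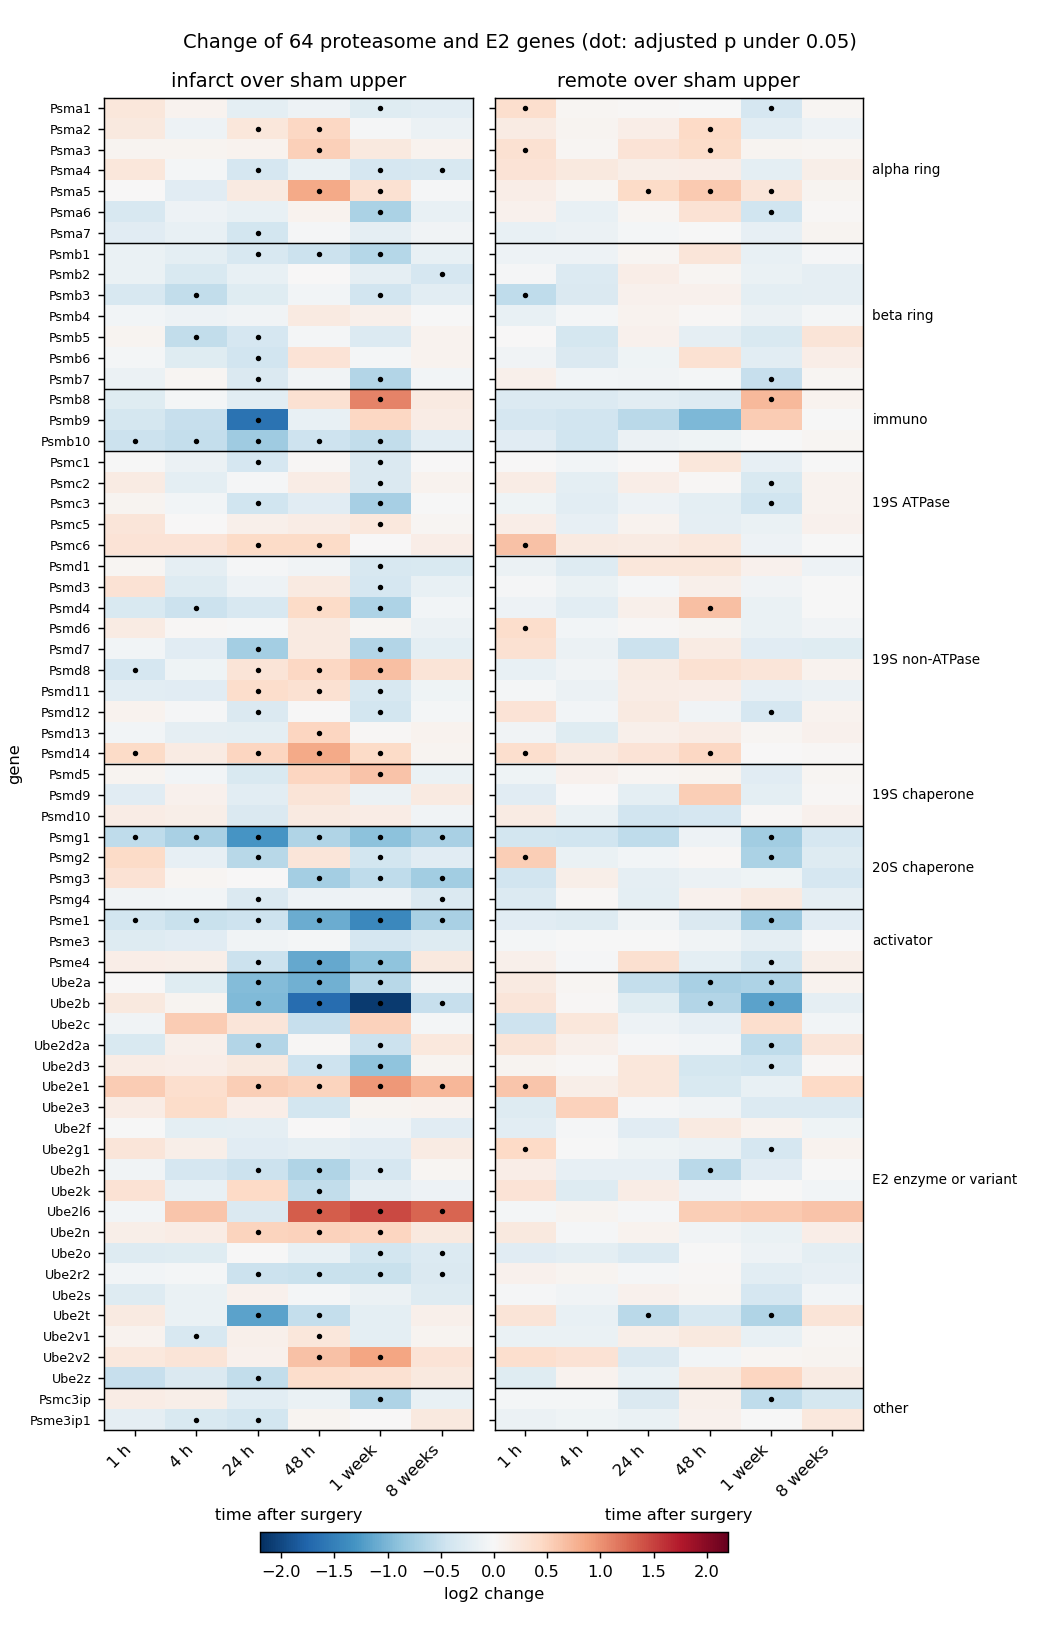
Log2 change of each of the 64 tested members, infarct over sham upper on the left and remote over sham upper on the right, with genes in rows grouped by class and times in columns. Dots mark adjusted p under 0.05. Psmg1 and Psme1 carry dots at all 6 times in the infarct column.

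The subunits of the constitutive 20S and 19S particles did not move as a block. Of the 29 tested, 5 were higher and 10 lower in the infarct at 24 h (all genes: 18.6% and 24%). At 48 h 9 were higher and 1 was lower (all genes: 25.1% and 25.8%), and at 1 week 4 were higher and 15 lower (all genes: 34.9% and 25.7%). Psma5, an alpha ring subunit, had the largest core rise. At 48 h it read 2099, 2220 and 2225 in infarct, 1721, 1861 and 1883 in remote, and 1128, 1169 and 1323 in sham upper arrays. All infarct and remote arrays lay above all sham upper arrays, and the sham lower array read 1099. The change over sham upper was 0.83 ± 0.11 in infarct (log2, SE, n = 3 each, limma adjusted p = 2.16e-08) and 0.58 ± 0.11 in remote (limma adjusted p = 0.00038). Psma2 and Psma3, also of the alpha ring, rose at 48 h by 0.46 and 0.53 in infarct and by 0.43 and 0.41 in remote.

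At 1 week other core subunits were lower. Psmb7, the subunit with trypsin-like activity, read 1621, 1770 and 1967 in infarct, 1709, 2019 and 2206 in remote, and 2760, 2828 and 2830.2 in sham upper arrays, with no overlap of either region with sham upper. It fell by 0.64 ± 0.10 in infarct (limma adjusted p = 9.35e-07) and by 0.50 ± 0.10 in remote (limma adjusted p = 0.00015). Psma6, of the alpha ring, read 3084, 3333 and 3486 in infarct, 3503, 4064 and 4389 in remote, and 4747, 5333 and 6189 in sham upper arrays, and fell by 0.70 and 0.44 (log2) in the 2 regions. Psmb5, with chymotrypsin-like activity, read 2450.1, 2622 and 2665 in infarct, 2695, 2847 and 3133 in remote, and 3715, 3723 and 3879.6 in sham upper arrays at 4 h. It was called lower in infarct at 4 h (-0.54) and at 24 h (-0.37), but its second probe set gave 0.10 and 0.11 there. Psmb6, with caspase-like activity, read 1393, 1402 and 1672 in infarct, 1499, 1903 and 2218 in remote, and 1869, 1951 and 2112 in sham upper arrays at 24 h, its only call, at -0.42. Psmb1 fell by 0.62 at 1 week by 1 probe set and had a change of -0.01 by another of similar intensity. Psmb4 was called at no time against sham upper, and was higher in infarct than in remote at 1 week, by 0.24.

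Among the 19S genes, Psmd14 was called higher from 24 h to 1 week and at 1 h, and Psmd8 from 24 h to 1 week after a fall of 0.38 at 1 h. Neither 1 h call held when each array was left out in turn. Psmd14, the deubiquitinase of the lid, read 1900, 2037 and 2117 in infarct, 1505, 1543 and 1552 in remote, and 973, 1022 and 1353 in sham upper arrays at 48 h. The 3 regions did not overlap, and the sham lower array read 1205. The change over sham upper was 0.84 ± 0.11 in infarct (limma adjusted p = 3.56e-08) and 0.46 ± 0.11 in remote (limma adjusted p = 0.00631). Psmd14 also had the smallest p of the sham upper time course (F test, limma adjusted p = 0.00106), with 715 to 976 in sham upper arrays at 1 h. Psmd8, a lid subunit, read 1230, 1351 and 1454 in infarct, 949, 1040 and 1053 in remote, and 785, 818 and 893 in sham upper arrays at 1 week. Its infarct arrays lay above all others, with a change of 0.66 ± 0.11 (limma adjusted p = 3.56e-06).

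Psmc3, an ATPase of the base, went the other way. At 1 week it read 1038, 1238 and 1341 in infarct, 1466, 1481 and 1495 in remote, and 1815, 1962 and 2332 in sham upper arrays. The 3 regions were separate, with falls of 0.73 ± 0.12 in infarct (limma adjusted p = 1.09e-06) and 0.44 in remote. Its 3 probe sets all fell. Psmc5, another ATPase, was the only ATPase called higher at 1 week, by 0.24. It was also higher in sham lower than in sham upper arrays in 5 of 5 pairs, by 0.25. Psmd4, a ubiquitin receptor, was called higher at 48 h (0.41) and lower at 1 week (-0.67), but its sham lower array at 1 week read 1575, within the infarct range of 1498 to 1821. Psmd7, of the lid, fell by 0.75 at 24 h and 0.65 at 1 week. Psmd11 was called higher at 24 h (0.39) and 48 h (0.33) and lower at 1 week (-0.35), and its other probe sets gave changes of 0.65 and -0.09 at 1 week. Of the 19S assembly chaperones Psmd5 was called higher at 1 week (0.62), a call that did not hold without each array, and Psmd9 and Psmd10 were not called against sham upper. Psmd10 was higher in infarct than in remote at 48 h, by 0.57.

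The 3 immunoproteasome genes went different ways at 1 week, with infarct changes from -0.55 to 1.10. At 1 h, 4 h and 24 h all 3 changes were negative, at -0.47 to -0.26, -0.52 to -0.03 and -1.63 to -0.22. Only 1, 1 and 2 of the 3 were called lower at these times, and Psmb8 was never among them. With 1 array left out in turn, the 4 h change of Psmb8 ran from -0.13 to 0.15. Sham lower over sham upper changes were also negative, at -0.17 for Psmb8, -0.21 for Psmb9 and -0.22 for Psmb10, none called. The promoters of these 3 and of Psme1 are shown because the 4 genes are known for induction by interferon gamma and yet differed in direction at 1 week. The windows hold 250 bases before and 50 after the start site (RefSeq, GRCm38.p6, each on its gene's strand). Psmb8 lies at chr17:34197945-34198244 (plus), Psmb9 at chr17:34187281-34187580 (minus), Psmb10 at chr8:105938343-105938642 (minus) and Psme1 at chr14:55578244-55578543 (plus). Capitals mark a match to the interferon regulatory factor motif (a pair of GAAA runs 2 bases apart), on either strand. Another motif, TGACNNNGC, the form of an antioxidant response element, was searched and matched in none of the 4. The motifs were chosen after the promoters were seen.
Psmb8: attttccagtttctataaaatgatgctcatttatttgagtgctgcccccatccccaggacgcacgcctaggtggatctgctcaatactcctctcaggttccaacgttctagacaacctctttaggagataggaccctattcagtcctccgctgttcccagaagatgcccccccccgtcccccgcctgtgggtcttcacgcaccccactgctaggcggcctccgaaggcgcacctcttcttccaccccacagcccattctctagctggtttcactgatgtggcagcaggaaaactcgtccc
Psmb9: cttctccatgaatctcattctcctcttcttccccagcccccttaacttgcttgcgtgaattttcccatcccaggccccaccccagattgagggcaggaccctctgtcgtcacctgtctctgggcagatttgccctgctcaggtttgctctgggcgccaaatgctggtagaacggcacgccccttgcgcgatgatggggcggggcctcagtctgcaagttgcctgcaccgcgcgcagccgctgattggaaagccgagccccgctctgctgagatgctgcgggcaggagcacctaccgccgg
Psmb10: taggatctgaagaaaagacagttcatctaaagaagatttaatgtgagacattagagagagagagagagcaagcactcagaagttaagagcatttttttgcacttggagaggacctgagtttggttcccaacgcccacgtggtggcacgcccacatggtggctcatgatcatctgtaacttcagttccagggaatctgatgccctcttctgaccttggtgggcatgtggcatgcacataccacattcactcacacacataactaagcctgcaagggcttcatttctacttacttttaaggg
Psme1: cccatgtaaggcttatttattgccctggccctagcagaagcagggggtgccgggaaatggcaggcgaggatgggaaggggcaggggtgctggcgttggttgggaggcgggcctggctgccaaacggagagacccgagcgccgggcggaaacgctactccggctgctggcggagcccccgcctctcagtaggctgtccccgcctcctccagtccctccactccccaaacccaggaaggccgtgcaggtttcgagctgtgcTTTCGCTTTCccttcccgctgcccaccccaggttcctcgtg
Psme1 held the interferon regulatory factor motif, on the minus strand, while Psmb8, Psmb9 and Psmb10 held neither motif in these windows. Of all 32851 promoters searched, 3.44% held the interferon regulatory factor motif and 12.4% TGACNNNGC. Of the 64 promoter windows of 55 members, 5 held the first and 8 the second. A match is a run of letters, not a bound site.

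Psmb8, which replaces Psmb5 in the immunoproteasome, read 1189, 1288 and 1447 in infarct, 881, 959 and 1134 in remote, and 567, 569 and 624 in sham upper arrays at 1 week. The 3 regions did not overlap, and the sham lower array read 561. The change over sham upper was 1.10 ± 0.27 in infarct (limma adjusted p = 0.000544) and 0.71 ± 0.27 in remote (limma adjusted p = 0.0346), and the infarct call held without each array. At 48 h the infarct arrays of Psmb8 ran from 453 to 1639 around 621 to 742 in sham upper, and at 8 weeks from 671 to 1434 around 857 to 1043, with no call.

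Psmb9, which replaces Psmb6, was lower in the infarct at 24 h. It read 30.8, 105 and 165 in infarct, 170.1, 193 and 425 in remote, and 290.5, 409 and 459 in sham upper arrays. All 3 infarct arrays lay below all others, and the sham lower array read 335. The change was -1.63 ± 0.35 on the log2(intensity + 45.6) scale, which understates changes of low intensities, with 2 of the 3 infarct arrays under the floor (limma adjusted p = 0.000235). At 1 week Psmb9 had a change of 0.46 with an adjusted p of 0.273 from limma, while all 3 infarct arrays (349 to 426) lay above all 3 sham upper arrays (259 to 308).

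Psmb10, which replaces Psmb7, was called lower in the infarct from 1 h to 1 week. At 24 h it read 764, 767 and 846 in infarct, 1153, 1209 and 1493 in remote, and 1227, 1446 and 1547 in sham upper arrays. The infarct arrays lay below all others, at a change of -0.78 ± 0.14 (limma adjusted p = 2.15e-05), and remote overlapped sham upper. The other changes were -0.47 at 1 h, -0.52 at 4 h, -0.45 at 48 h and -0.55 at 1 week. The 1 h call of Psmb10 did not hold when each array was left out in turn. Leaving out 1 infarct array took the 48 h change to -0.29 and ended its call. The sham lower arrays of Psmb10 read 1325 at 1 h and 1204 at 1 week, below the sham upper means, and against 1 such array a time the changes were -0.09 at 1 h, -0.39 at 4 h, -0.46 at 48 h and -0.29 at 1 week, none called, and -0.72 at 24 h, called. MHC class I presentation genes on a list had 6 of 9 higher and none lower in infarct at 1 week, Tap1 by 1.05 and H2-D1 by 1.05 among them. Of 18 interferon response genes 9 were higher and none was lower (all genes at 1 week: 34.9% higher and 25.7% lower).

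**Figure D3:**
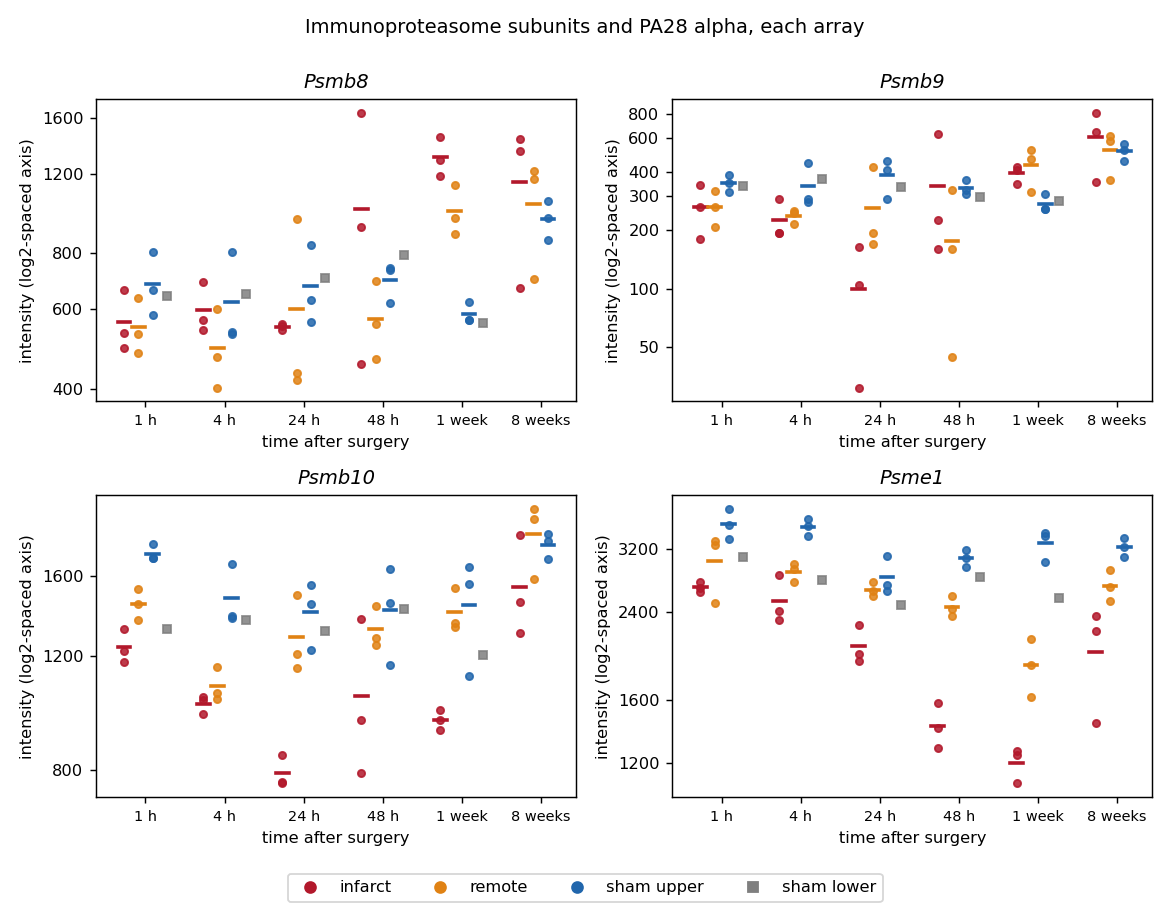
Intensity on a log2-spaced axis of Psmb8, Psmb9, Psmb10 and Psme1 in every infarct, remote, sham upper and sham lower array by time, with bars at group means. At 1 week Psmb8 is highest in infarct (1189 to 1447) while Psme1 is lowest there.

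Psme1, the alpha subunit of the PA28 activator, fell in the infarct at all 6 times. At 1 week it read 1095, 1245 and 1271 in infarct, 1628, 1883 and 2118 in remote, and 3013, 3388 and 3438 in sham upper arrays. The 3 regions did not overlap, and the sham lower array, at 2556, lay above every infarct array. The change was -1.41 ± 0.12 in infarct (limma adjusted p = 3.08e-13) and -0.80 ± 0.12 in remote (limma adjusted p = 1.65e-06). The changes at the other times were -0.41, -0.49, -0.45 and -1.08 from 1 h to 48 h, and -0.71 at 8 weeks. The 1 h call of Psme1 did not hold when each array was left out in turn. Against the single sham lower array of each time the changes were -0.20, -0.15 and -0.28 from 1 h to 24 h, none called, and -0.96 at 48 h and -1.05 at 1 week, both called. The probe sets of the partner Psme2 are each assigned to several genes, so it is not named from them.

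Psme4, the PA200 activator, fell at 24 h (-0.48), 48 h and 1 week. At 48 h it read 1129, 1365 and 1381 in infarct, 2351, 2507 and 2523 in remote, and 2633, 2742 and 3221 in sham upper arrays. The infarct arrays read below all others, at -1.12 ± 0.14 (limma adjusted p = 5.26e-09), and 1 week gave -0.89 in infarct and -0.40 in remote. Psme3, the PA28 gamma subunit, was not called against sham upper at any time, and at 1 week read 432, 447 and 496 in infarct, 420.0, 483 and 684 in remote, and 540.0, 574 and 705 in sham upper arrays.

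Psmg1, a chaperone that starts 20S assembly, fell in the infarct at all 6 times. At 24 h it read 139, 227 and 307 in infarct, 336, 369 and 528 in remote, and 528, 605 and 683 in sham upper arrays. The infarct arrays lay below all others, at -1.29 ± 0.18 (limma adjusted p = 1.23e-07). The changes were -0.57 at 1 h, -0.71 at 4 h, -0.66 at 48 h, -0.90 at 1 week and -0.71 at 8 weeks, and the remote fall at 1 week was -0.76 (limma adjusted p = 0.000609). The 1 h call of Psmg1 did not hold when each array was left out in turn. Psmg1 was also lower in sham lower than in sham upper arrays in 4 of 5 pairs, with a change of -0.24. Psmg2, its partner, fell by 0.40 in infarct and 0.70 in remote at 1 week. Psmg3 fell by 0.75 at 48 h, 0.56 at 1 week and 0.76 at 8 weeks, while its dimmer second probe set rose by 1.05 at 48 h. Psmg4, the partner of Psmg3, was called lower at 24 h (-0.32) and 8 weeks (-0.33) and had a change of -0.11 at 1 week.

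**Figure D4:**
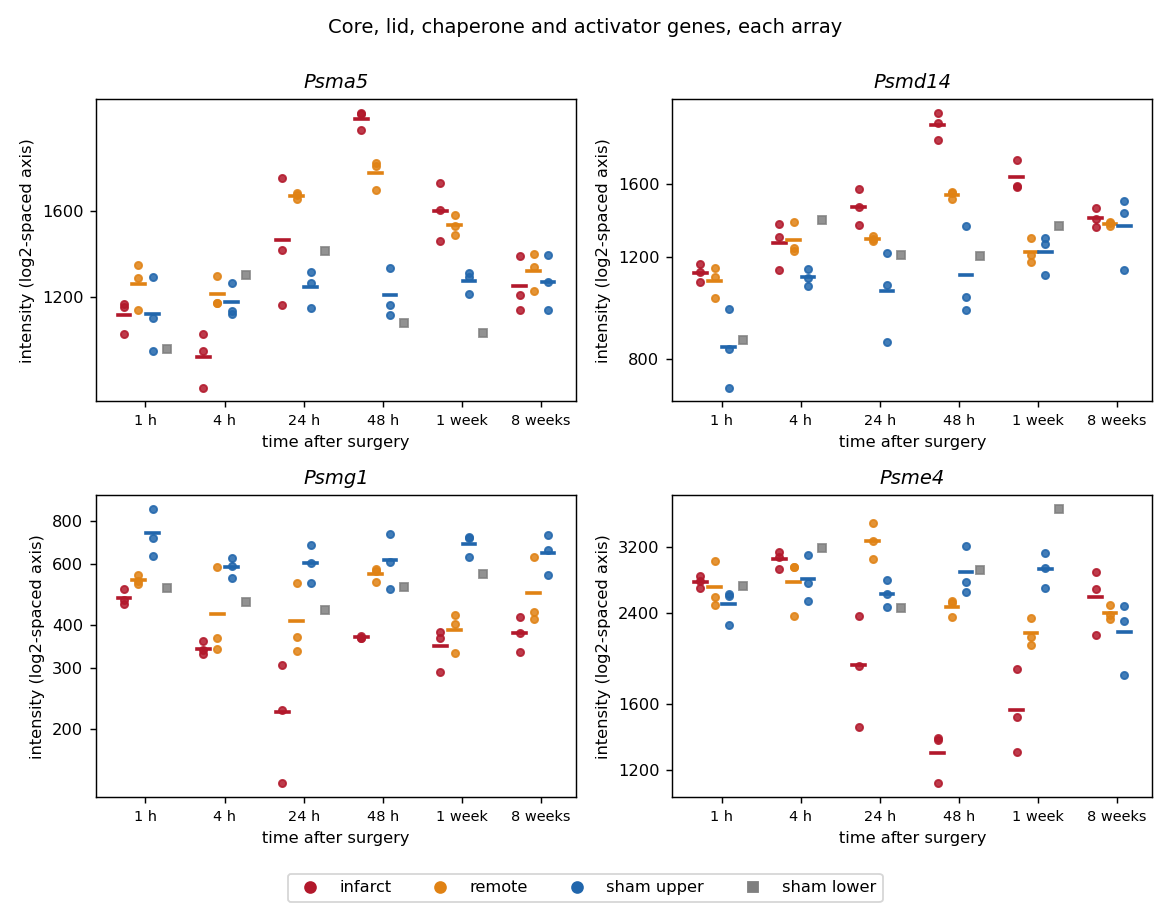
Intensity on a log2-spaced axis of Psma5, Psmd14, Psmg1 and Psme4 in every array by time, with bars at group means. Psma5 and Psmd14 peak in infarct at 48 h, at 2099 to 2225 and 1900 to 2117, where Psme4 reads 1129 to 1381.

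Among the E2 enzymes Ube2b changed most. Ube2b, the mouse relative of yeast Rad6, is known for histone and repair functions and, in muscle, for conjugation in protein breakdown. At 1 week it read 877, 952 and 959 in infarct, 1655, 1839 and 1942 in remote, and 3809, 4310 and 4370 in sham upper arrays. The 3 regions did not overlap, and the sham lower array read 3557. The change was -2.11 ± 0.15 in infarct (limma adjusted p = 1.3e-15) and -1.18 ± 0.15 in remote (limma adjusted p = 4.06e-08). In infarct it was -0.96 at 24 h and -1.68 at 48 h, all held against the sham lower array alone, and -0.51 at 8 weeks, which ended when 1 array was left out (limma adjusted p = 0.2). At 48 h the remote region fell by 0.65.

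Ube2a, the paralogue of Ube2b, read 202, 222 and 237 in infarct, 243, 251 and 404 in remote, and 468, 477 and 580 in sham upper arrays at 48 h, a change of -1.05 ± 0.17 (limma adjusted p = 1.77e-06). It fell by 0.95 at 24 h and 0.60 at 1 week, and in remote by 0.71 at 48 h and 0.68 at 1 week. Close sequence of the 2 genes could let probes of one read the other, which was not tested. Ube2d3, a broad partner of E3 ligases, fell by 0.89 at 1 week by 1 probe set and rose by 0.55 by the other, so its direction is not settled.

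Ube2n and Ube2v2 rose, and Ube2n with Ube2v1 or Ube2v2 is known to build lysine-63 chains that signal and do not mark for breakdown. Ube2n read 2397, 2406 and 2631 in infarct, 1419, 1538 and 1876 in remote, and 1725, 1732 and 1840.0 in sham upper arrays at 1 week. The infarct arrays lay above the other 2 groups, at 0.48 ± 0.10 (limma adjusted p = 0.000119), and the changes at 24 h and 48 h were 0.48 and 0.50. The sham lower array read 2456, inside the infarct range, and against it alone the 1 week change was 0.01. Ube2v2 rose by 0.65 at 48 h and 0.86 at 1 week, with intensities of 234 to 282 in infarct and 109 to 139 in sham upper at 1 week.

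Ube2e1, an E2 with a broad range of partners, was called higher in infarct at 24 h (0.54), 48 h (0.50), 1 week (0.95) and 8 weeks (0.73). At 1 week it read 743, 785 and 847 in infarct, 289, 293 and 469 in remote, and 369, 395.2 and 400.4 in sham upper arrays. Infarct lay above both others (limma adjusted p = 1.67e-05 over sham upper), and the sham lower array, at 588, lay between. Against the sham lower array alone the changes were 0.34 at 24 h and 0.40 at 1 week, and no time was called.

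Ube2l6, the E2 for the interferon-induced modifier ISG15, rose in infarct at 48 h (1.33), 1 week (1.46) and 8 weeks (1.29). The 3 sham upper arrays of each of these times lie under the floor, so these are fitted values and the sizes are not measured. At 1 week it read 193, 219 and 384 in infarct, 39.2, 134 and 233 in remote, and 42.1, 63.4 and 90.5 in sham upper arrays. Infarct arrays lay above sham upper and overlapped remote, with ± 0.43 as SE (limma adjusted p = 0.00343). Intensities reached the floor on 15 of 59 arrays, and the 8 week change was 0.81 without the infarct array that stood apart (limma adjusted p = 0.257). Ube2l6 was also higher in sham lower than in sham upper arrays in 4 of 5 pairs, with a change of 0.54 that was not called. The median of its sham lower arrays, 64.9, lies under the floor, so the size of this position difference is not measured either. Ube2t, of the Fanconi pathway, fell at 24 h to 23.2, 28.2 and 63.1 in infarct, against 125, 145 and 162 in sham upper arrays (limma adjusted p = 7.21e-07). All 3 infarct values lie under the floor of 108.2, so the size of the fall is not measured. Ube2c, the E2 of the anaphase-promoting complex, was called at no time. Its intensities averaged 165, near the floor of 108.2, and reached it on 53 of 59 arrays. The lack of a call therefore does not show that Ube2c was unchanged. At 1 week it read 157, 169.5 and 289 in infarct, 149.5, 181 and 202 in remote, and 80.9, 151 and 158 in sham upper arrays. Of 20 cell division genes on a list, 19 were higher in infarct then (all genes: 34.9%).

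**Figure D5:**
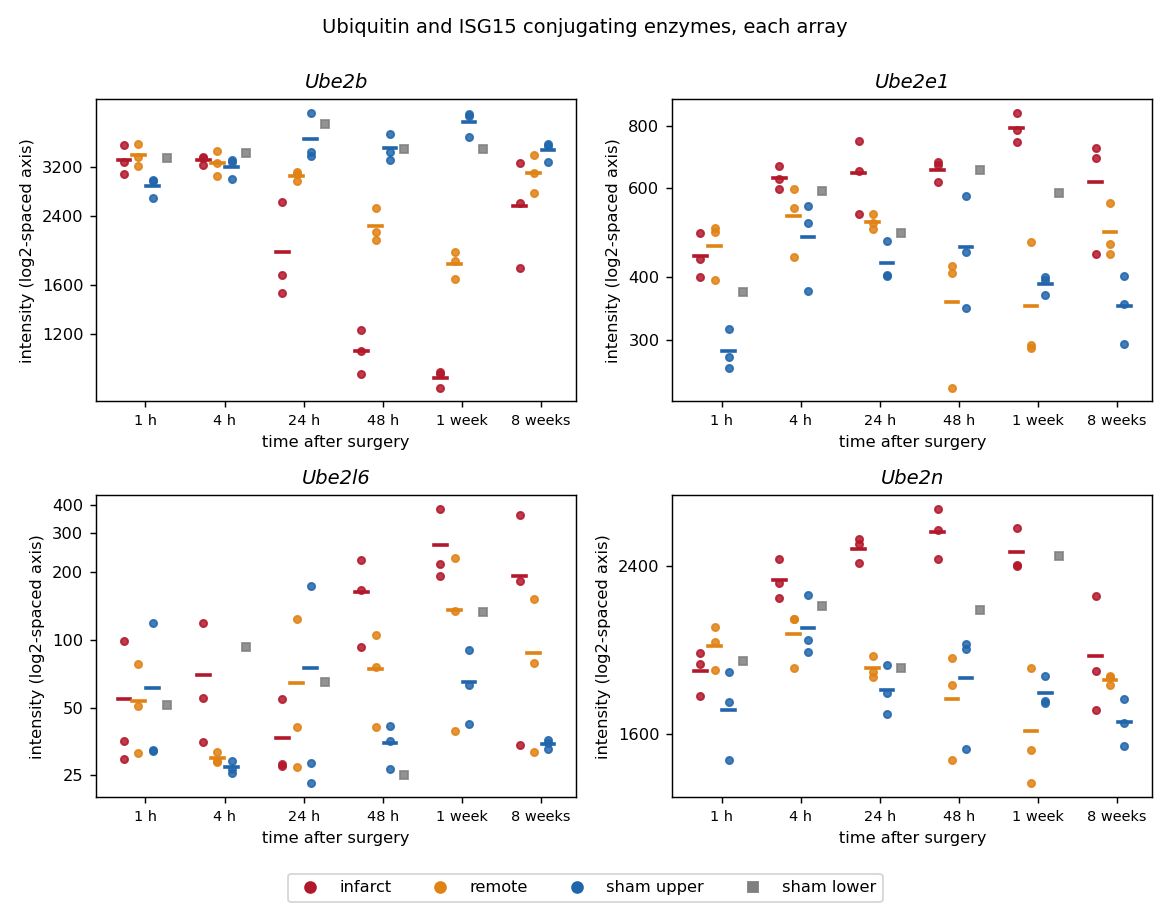
Intensity on a log2-spaced axis of Ube2b, Ube2e1, Ube2l6 and Ube2n in every array by time, with bars at group means. Ube2b steps down in infarct to 877 to 959 at 1 week, with remote between infarct and sham upper.

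In the remote region 19 of the members' 38 calls over the 6 times came at 1 week (50% of them, against 62.3% of the calls of all genes). There 2 were higher and 17 lower than sham upper (all genes: 38.4% called, 20.7% and 17.7%), and without 1 of the sham upper arrays the count was 12. At 1 h 8 were higher and 1 was lower (all genes: 8.02% called, 5.52% and 2.5%). At 24 h 1 was higher and 1 lower (all genes: 4.5% called, 2.94% and 1.56%), and at 48 h 5 and 3 (all genes: 8.82% called, 4.47% and 4.35%). At 4 h and 8 weeks none was called (all genes: 1.74% called, 1.42% and 0.315%, at 4 h, and 0.12% at 8 weeks). The 1 h rises were Psmc6 (0.64), Ube2e1 (0.61), Psmg2 (0.54), Ube2g1 (0.44), Psmd6 (0.38), Psma1 (0.38), Psmd14 (0.37) and Psma3 (0.34), and Psmb3 was lower (-0.57). Without 1 of the remote arrays the 1 h count was 1. The 2 comparisons with sham upper share those arrays, so their values are given side by side and not compared by overlap.

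Infarct was also set against remote, the region above the infarction. The labels do not say whether the arrays of the 2 regions share mice. At 1 h 1 member was higher and 2 were lower (all genes: 5.08% called, 3.16% and 1.92%). At 4 h none was called (all genes: 1.42% called, 0.705% and 0.72%). At 24 h 2 were higher and 23 lower (all genes: 33.3% called, 15.5% and 17.8%), and at 48 h 10 and 10 (all genes: 48.1% called, 24.4% and 23.6%). At 1 week 9 were higher and 16 lower (all genes: 41.2% called, 22.8% and 18.4%), which came to 7 and 9 without the infarct array that stood apart, and at 8 weeks none was higher and 2 were lower (all genes: 6.49% called, 3.78% and 2.71%). The 1 h calls were Psmg3 (0.75), the E2 gene Ube2d2a (-0.60) and Psma6 (-0.44). The 24 h rises were Ube2n (0.41) and Ube2o (0.29), a large enzyme with E2 and E3 activity. Ube2b, Psme4, Psmb10 and Psmg1 were among the falls at 24 h, with -0.69, -0.83, -0.65 and -0.74. At 48 h Psmb9 (0.82) and Psmb8 (0.61) were called higher in infarct than in remote, although the groups overlapped and neither was called against sham upper. Leaving out 1 array moved these changes to between 0.34 and 1.23 for Psmb9 and between 0.20 and 1.04 for Psmb8, and the calls held in 4 and 2 of the 6 fits. At 1 week Ube2e1 (1.11), Psmd5 (0.86) and Ube2v2 (0.82) had the largest rises and Ube2b (-0.93), Psme1 (-0.62) and Psmb10 (-0.53) the largest falls. At 8 weeks Psma4 (-0.47) and Psme1 (-0.46) were called, and without the infarct array that stood apart none was.

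Over all times 53 of the 64 members differed between infarct and sham upper (limma F test; all genes 77.7%), 30 between remote and sham upper (42.2%), and 13 between times in sham upper (20.4%). These counts were near the background. In the sham upper arrays Psmd14, Psmd7 (limma adjusted p = 0.00236) and Psmg2 (limma adjusted p = 0.00401) had the smallest p. The 2 sham regions were also compared. In 5 pairs of sham lower and sham upper arrays no member and no gene passed adjustment in limma, 12 members had an unadjusted p under 0.05 (all genes 14.4%), and 11 members went the same way in all 5 pairs (all genes 14.7%). Among these 11 the changes, sham lower over sham upper, were 0.37 for Ube2e1, 0.25 for Ube2n, 0.25 for Psmc5, -0.22 for Psme1 and -0.21 for Psmb9. With the sham lower array as the only control, 0, 0, 9, 14 and 17 members were called from 1 h to 1 week (all genes: 0.345%, 2.16%, 24.5%, 35.1% and 44.2%), and 9, 12 and 15 of them had been called against sham upper in the same direction at 24 h, 48 h and 1 week. Of the 5, 8, 32, 27 and 39 members called against sham upper, 5, 8, 32, 26 and 35 kept their sign. With 1 control array a time, a lost call and a loss of precision cannot be told apart. Ube2b, Psme1, Psme4, Psmg1, Psmg3, Psmb7, Psmb8, Psma5, Psmd8 and Psmc3 were among those called at 1 week against both controls.

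Other genes of the pathway, from lists of them, were mixed in the infarct at 1 week, when 34.9% of all genes were higher and 25.7% lower. Of 4 genes of E1 enzymes 2 were higher, Sae1 (1.03) and Uba7 (0.85). Sae1 is part of the E1 for SUMO, another modifier, and Uba7 is the E1 for ISG15. Of 32 E3 ligases 7 were higher and 10 lower, with Rnf4 at 1.51 and Rnf14, Huwe1 and Stub1 at -1.09, -1.05 and -0.97. Of 19 deubiquitinases 9 were higher and 3 lower, with Usp2 at -2.14. Nfe2l1, a transcription factor known to drive proteasome genes when proteasome activity falls, was lower by 1.10 (limma adjusted p = 5.73e-12) and Pomp, a chaperone of 20S maturation, was higher by 0.55.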

How the data were processed

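Left ventricular RNA was measured on 59 Affymetrix arrays. The values are intensities that the authors deposited as 1 table of probe sets by arrays. The scaling tool is not given in the sources used here. From the values, trimmed means were 499.2 to 499.9 on every array. Samples were grouped by region and time from the labels. Of 12488 probe sets 10833 have 1 gene in the platform annotation, giving 8251 genes, each read by its probe set of highest mean. A gene was tested if it reached 108.2 intensity units (the 40th percentile) on at least 3 arrays, which left 6670.

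Log2(intensity + 45.6), the added value being 0.25 times the median of all values, was fitted with limma 3.58.1 in R 4.3.3 in 1 model of 23 groups, with the number in the array title as a random block (consensus correlation 0.15). P-values were adjusted by Benjamini-Hochberg over 6670 genes in each comparison. Tests across all times were moderated F tests. On simulated data for infarct over sham upper at 24 h the fit recovered 36% of genes changed by 0.5 log2, 84% at 1 and 98% at 1.5 and 2. The simulation changed 50 of 6670 genes at each of these sizes, while 42.6% were called in the data. The adjustment depends on that share, so these rates need not hold for the data. The number of arrays limits the precision.

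Alternatives were other offsets, quantile normalization, no filter, other probe sets, no block, only the groups compared, both sham regions as control, leaving out each array, and, added after seeing the data, the sham lower array alone. The members, gene lists and motifs were chosen with earlier results of these data known. Genes were named by a fixed panel (Psmb8, Psmb9, Psmb10, Psmb5, Psmb6, Psmb7, Psme1, Psme2, Psme3, Ube2c, Ube2l6, Ube2m, Ube2n, and 1 gene not reported here), plus, among calls whose groups did not overlap, the 4 largest rises and falls per time for infarct over sham upper and the 2 largest for the other comparisons, the 3 smallest p of the sham upper time course, and the largest rise and fall of each class at 1 week. Others were named after their values were seen. Ube2m has no probe set assigned to it alone.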

Additional observations from a re-analysis of the deposited data

Results flagged for a closer look

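For 38 of the 64 members the infarct over sham upper change differed between the 6 times (limma F test on the interaction, adjusted p under 0.05; 64.7% of all genes). Among the panel genes this held for Psme1 (limma adjusted p = 3.57e-06), Psmb7 (limma adjusted p = 0.00104), Psmb9 (limma adjusted p = 0.00783), Psmb8 (limma adjusted p = 0.0187), Psmb5 (limma adjusted p = 0.0249), Ube2l6 (limma adjusted p = 0.029) and Ube2n (limma adjusted p = 0.0443).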

How the results depend on the processing

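With a larger added value (1 times the median) 5 members were called for infarct over remote at 1 h. With quantile normalization 1 was called for remote over sham upper at 24 h. Quantile normalization shifted the median of all genes by -0.18 in infarct and -0.11 in remote at 1 week, and no called member changed sign. By the next probe set of each gene, infarct over remote gave 1 call at each of 1 h, 4 h and 8 weeks, and Psmb5 turned to 0.10 at 4 h and 0.11 at 24 h. With both sham regions as control infarct at 1 h gave 1 and remote at 24 h gave 4. With the sham lower array alone infarct gave 0, 0, 9, 14 and 17 from 1 h to 1 week, and Psme3 turned from -0.04 to 0.71 at 48 h. With only the 2 groups in the fit, infarct over sham upper gave 0, 13 and 0 at 1 h, 24 h and 8 weeks, remote over sham upper gave 0, 0, 0 and 11 at 1 h, 24 h, 48 h and 1 week, and infarct over remote gave 0, 3, 11 and 0 at 1 h, 24 h, 48 h and 8 weeks. The cause of these moves was not tested, beyond the fewer arrays.

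What the number in an array's title stands for is not stated. At 24 h not all numbers of infarct and remote arrays matched. Same-numbered infarct and remote arrays correlated in their deviations by -0.098 to 0.42, with 7 of 17 pairs over 0.1, against 6 of 37 other pairs. With the number as a fixed replicate block, and only the 2 groups fitted, infarct over remote gave 0, 5, 11, 15 and 0 calls at 1 h, 24 h, 48 h, 1 week and 8 weeks. With no replicate block, and with no filter, no count moved by over 1.5 times.

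Leaving out 1 array at a time, infarct over sham upper gave 0 to 3, 4 to 7, 21 to 28, 22 to 26, 31 to 37 and 5 to 12 calls from 1 h to 8 weeks. Remote over sham upper gave 1 to 6, 0 to 0, 0 to 5, 6 to 11, 12 to 18 and 0 to 0. Infarct over remote gave 0 to 3, 0 to 0, 17 to 24, 14 to 19, 15 to 25 and 0 to 5. The tests over all times gave 48 to 54 for infarct, 34 to 41 for its change between times, 24 to 32 for remote and 10 to 15 for sham upper.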
